A study of Mus musculus with 4 samples.

Results

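The LMO and LDB genes encode a small set of nuclear cofactors, and 6 of them were followed here: Lmo1, Lmo2, Lmo3, Lmo4, Ldb1 and Ldb2. They were taken from the array files by gene name or by the current symbol of the probe's RefSeq accession, which gave 10 probes for 6 genes, of 41174 probes and 21287 named genes on the array. The set was selected on the measured Lmo1 signal, which was higher in both Meis1-deleted pools. The Lmo1 difference between the groups is therefore given as a description, without a test, and supports nothing further.

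LMO proteins consist almost wholly of a pair of LIM domains, zinc-binding modules that hold other proteins and do not bind DNA. LDB proteins bind those LIM domains, and those of LIM-homeodomain transcription factors, and pair with each other, so that they bridge DNA-bound factors such as bHLH and GATA proteins. In blood cells such a complex of LMO2, LDB1, TAL1 or LYL1 and GATA factors drives stem cell and red cell genes. LMO1 and LMO2 are known as oncogenes of T cell acute lymphoblastic leukaemia, and LMO4 is widely expressed in epithelia.

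Expression was measured in sorted mouse thymic epithelial cells (TECs, the CD45- EpCAM+ stromal cells that select developing T cells), with 1 single-colour array per pool. The deleted group, called Meis1-CKO here and KO in the labels, had 2 pools from K14-CreERT2 Meis1fl/fl mice. The control group, labelled WT, had 2 pools from mice with the same Cre and 1 floxed beside 1 normal Meis1 allele. Each pool held 6 mice aged 3 weeks; mice of both genotypes received 1 mg tamoxifen on each of 3 days, cells were sorted 4 days later, and 10 ng of RNA went into the amplification. The K14 promoter is that of keratin 14, a gene of basal epithelial and medullary thymic cells, so recombination is driven in those cells and not directly in others. The controls are heterozygous for the floxed allele and are not animals with unmanipulated Meis1.

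Each level below is the log2 signal of a probe relative to the 75th percentile of its array, and a difference is Meis1-CKO minus control on that scale. Levels of different probes cannot be set against each other. Meis1-CKO 1 and control 1 shared a slide and a scan (slide 1), as did Meis1-CKO 2 and control 2 (slide 2), and each difference is also given within the slides. Between 58.6% and 63.6% of spots were well above background on an array, and no spot was saturated. Meis1-CKO 2 stood apart, with correlations of 0.86 to 0.88 with the other arrays across features, against 0.94 among those others. All 12 TEC markers were well above background on all 4 arrays. Meis1 itself read -0.44 and -2.08 in Meis1-CKO 1 and 2, against -0.12 and -0.91 in control 1 and 2, at its brighter probe (difference -0.75, SE 0.69), where the groups overlapped. A second Meis1 probe read below the detection limit in both Meis1-CKO pools and above it in both control pools, a drop of at least 1.46-fold. The sources used here do not give the floxed exons, so neither probe checks the labels.

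Some of the stretches of transcript that were read are given here, because probes of Lmo4 and of Ldb1 disagreed. Whether the stretch read has a part in that disagreement was not tested. The first 3 sequences are whole probes of 60 bases, given 5′ to 3′. Those of Lmo2 and Lmo4 were placed over 4714 and 4650 bases of genome, in that order, and so cross an exon junction, and that of Ldb1 is the probe that stands for its gene in the test. The last 2 are stretches of 30 bases from the Lmo1 probe and from the second Ldb1 probe, with capitals marking AATAAA or ATTAAA, the letters of common polyadenylation signals.
Lmo2 probe A_51_P223686: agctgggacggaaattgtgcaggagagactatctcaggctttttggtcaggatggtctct
Lmo4 probe A_52_P153864: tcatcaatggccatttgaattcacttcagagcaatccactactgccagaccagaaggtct
Ldb1 probe A_51_P384756: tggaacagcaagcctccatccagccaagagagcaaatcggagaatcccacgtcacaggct
Lmo1 probe A_52_P331762, bases 31 to 60: ggcgtggATTAAActtatgaatgtttccgg
Ldb1 probe A_51_P384754, bases 1 to 30: gagcagaagacggAATAAAgagactgggcg
Searched on the strand of the probe, ATTAAA is held by 2.90% and AATAAA by 4.78% of all 41174 probes, and no other LMO or LDB probe holds either. A match describes the letters and not a site in use.

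Lmo1 was read by 1 probe, placed at chr7:116282086-116282145 on the minus strand of mm9. Its processed signal was 47.4 and 299.9 in Meis1-CKO 1 and 2, against 19.0 and 26.9 in control 1 and 2, and was well above background on all 4 arrays. The levels were -1.20 and 0.98 in Meis1-CKO 1 and 2, against -2.29 and -2.34 in control 1 and 2. Both Meis1-CKO pools thus lay above both control pools, and the Meis1-CKO pools lay further from each other than the control pools did. The log2 difference was 2.21 (SE 0.78, n = 2 pools each). It was 1.09 on slide 1, a ratio of 2.13, and 3.32 on slide 2, a ratio of 9.99. The difference was 1.12 without Meis1-CKO 2, and with normexp background correction in place of the scanner's own subtraction it was 1.19. Among the 14614 features above background on all 4 arrays, 31 differed upward by at least as much as Lmo1, itself included. Over all 16810 tested features 149 did so. Since this difference chose the set, nothing is read from its rank.

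Lmo2, the blood and endothelial member of the family, was read near background by a probe that crosses a junction at chr2:103816341-103821054 on the plus strand of mm9. Its levels were -2.88 and -1.77 in Meis1-CKO 1 and 2, against -2.43 and -3.40 in control 1 and 2. Control 2 was not well above background, and the groups overlapped. The difference was 0.59 (SE 0.61, limma adjusted p = 1.00). Slide 1 gave -0.45 and slide 2 gave 1.63. It was 0.04 without Meis1-CKO 2, 0.10 without control 2 and 0.10 with normexp background correction, 1.14 without Meis1-CKO 1 and 1.08 without control 1.

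Lmo3, known best from neurons and neuroblastoma, was well above background on 1 of the 4 arrays and did not pass the filter on low values, so it was not tested. Its brighter probe (chr6:138313467-138313526, minus strand, mm9) read -5.81 and -5.71 in Meis1-CKO 1 and 2, neither well above background, against -3.43 and -2.40 in control 1 and 2. Control 2 was the array on which it was well above background, so no size of difference is given. The second Lmo3 probe, at chr6:138312128-138312195, was well above background on no array.

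Lmo4, a partner of LDB1 and of factors such as DEAF1 in epithelial cells, had 3 probes, all well above background on all 4 arrays. The brightest (chr3:143851697-143851756, minus strand, mm9) stood for the gene and read 3.47 and 4.69 in Meis1-CKO 1 and 2, against 3.85 and 3.73 in control 1 and 2. The highest and the lowest reading were both in Meis1-CKO pools. Its difference was 0.29 (SE 0.56, limma adjusted p = 1.00). Slide 1 gave -0.38 and slide 2 gave 0.96. The sign turned without Meis1-CKO 2, to -0.32, and without Meis1-CKO 1 the difference was 0.90.

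The other Lmo4 probes gave differences of the opposite sign. The probe at chr3:143863749-143863808, designed on a cDNA clone, read 2.97 and 2.54 in Meis1-CKO 1 and 2, against 3.22 and 2.41 in control 1 and 2, a difference of -0.054 (SE 0.51 with each probe tested as a feature of its own). The junction probe printed above, at chr3:143852266-143856915, read -1.61 and -0.18 in Meis1-CKO 1 and 2, against -0.81 and -0.24 in control 1 and 2, a difference of -0.37 (SE 0.62). On slide 2 the 3 probes differed by 0.96, 0.13 and 0.055 in the order described, and on slide 1 by -0.38, -0.24 and -0.80. The ratio of 1.94 on slide 2 therefore stood at the brightest probe alone among the 3, against 1.10 and 1.04 at the others.

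Ldb1 encodes the widely expressed bridging cofactor, known from globin gene control in mouse red cells. The probe that stands for it (chr19:46107610-46107669, minus strand, mm9) read 1.46 and 1.52 in Meis1-CKO 1 and 2, against 0.81 and 0.78 in control 1 and 2. The Meis1-CKO pools lay close together above both control pools. The difference was 0.69 (SE 0.42, limma adjusted p = 1.00). Slide 1 gave 0.65 and slide 2 gave 0.74, nearly the same value.

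The second Ldb1 probe lies further along the same strand, at chr19:46107487-46107546. It read -0.13 and 1.10 in Meis1-CKO 1 and 2, against 0.21 and 0.19 in control 1 and 2. Meis1-CKO 1 was the lowest of the 4 and Meis1-CKO 2 the highest, so the groups overlapped. Its difference was 0.29 (SE 0.56), with -0.34 on slide 1 and 0.91 on slide 2. The steady Ldb1 difference thus rests on 1 of its 2 probes.

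Ldb2, the second LDB gene, was read by 1 probe (chr5:44864314-44864373, minus strand, mm9). Its levels were -1.80 and -5.24 in Meis1-CKO 1 and 2, against -3.31 and -1.90 in control 1 and 2. Meis1-CKO 1 was the highest of the 4 arrays, and Meis1-CKO 2, which was not well above background, the lowest. The difference was -0.92 (SE 1.20, limma adjusted p = 1.00), but slide 1 gave 1.51 and slide 2 gave -3.35. It turned to 0.80 without Meis1-CKO 2, without control 2 it was -0.21 and with normexp background correction -0.15, whereas without Meis1-CKO 1 it was -2.64 and without control 1 it was -1.62.

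**Figure D1:**
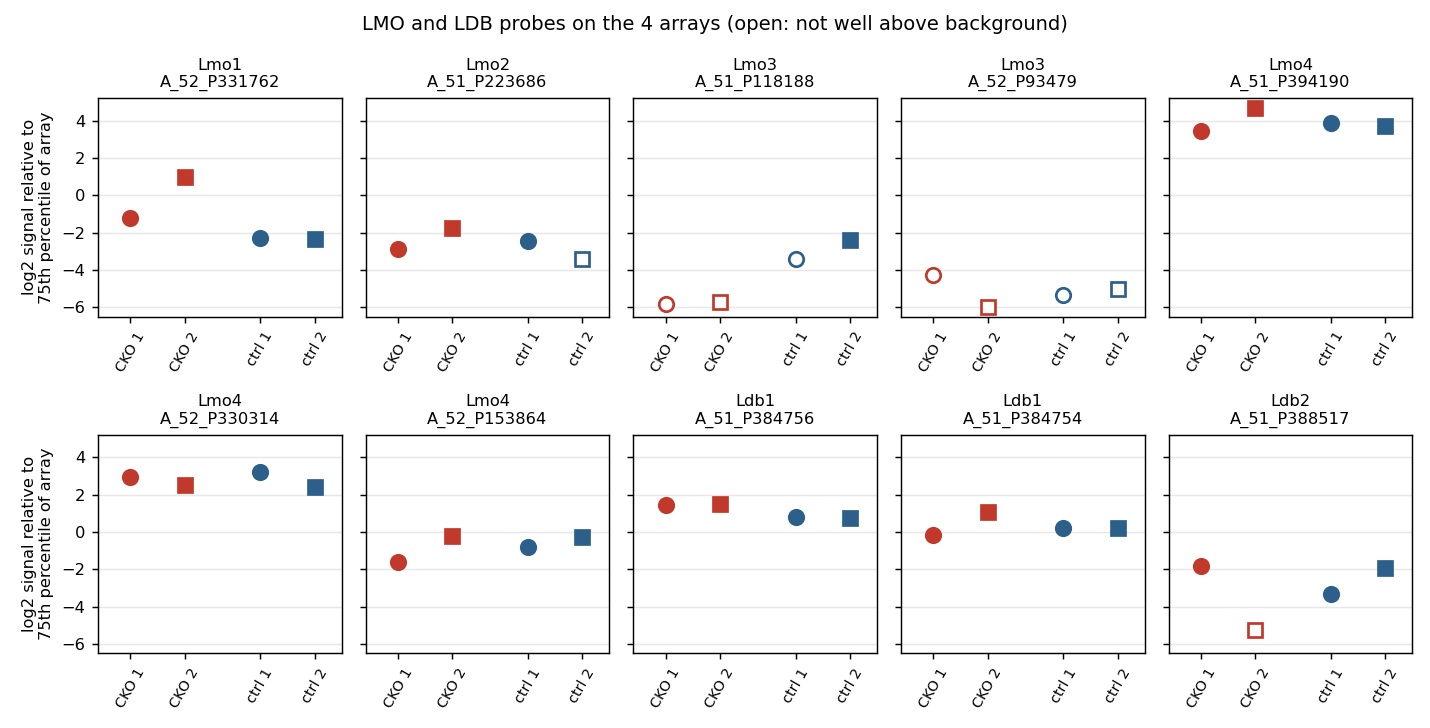
Level of each of the 10 LMO and LDB probes (log2 signal relative to the 75th percentile of the array, vertical axis) on Meis1-CKO 1 and 2 (red) and control 1 and 2 (blue), with circles for slide 1, squares for slide 2 and open symbols where the probe was not well above background. Both red points lie above both blue points for Lmo1 and for the Ldb1 probe A_51_P384756, and Meis1-CKO 2 is far below the rest for Ldb2.

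Across the family, 5 of the 6 genes passed the filter, and none of them was called at an adjusted p under 0.05. Over all 16810 features limma called 0, or 0%, and 466 had an unadjusted p under 0.05, 227 of them higher and 239 lower. Both Meis1-CKO arrays were above both control arrays for Lmo1 and Ldb1, against 11.1% of all features, and below them for no tested member, against 14.4%. Lmo1 was the 1 member at least 2-fold higher with arrays so separated, against 3.34% of features. The contrast that chose the set is the same, so nothing is read from these counts. The median difference of the 5 tested members was 0.59, against -0.05 over all features. That median is the value of Lmo2, which passed the filter through its Meis1-CKO readings alone. It includes Lmo1, which chose the set, and leaves out Lmo3, so nothing is read from it either.

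The members also differed from each other in how the slides compared. Lmo1 and Ldb1 were higher on both, Lmo2 and Lmo4 were lower on slide 1 and higher on slide 2, and Ldb2 was higher on slide 1 and lower on slide 2. Slide 2, the slide of Meis1-CKO 2, held the wider differences for the probes that stand for the 5 tested genes, between -3.35 and 3.32, against -0.45 and 1.51 on slide 1. The -3.35 of Ldb2 includes a reading below background.

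**Figure D2:**
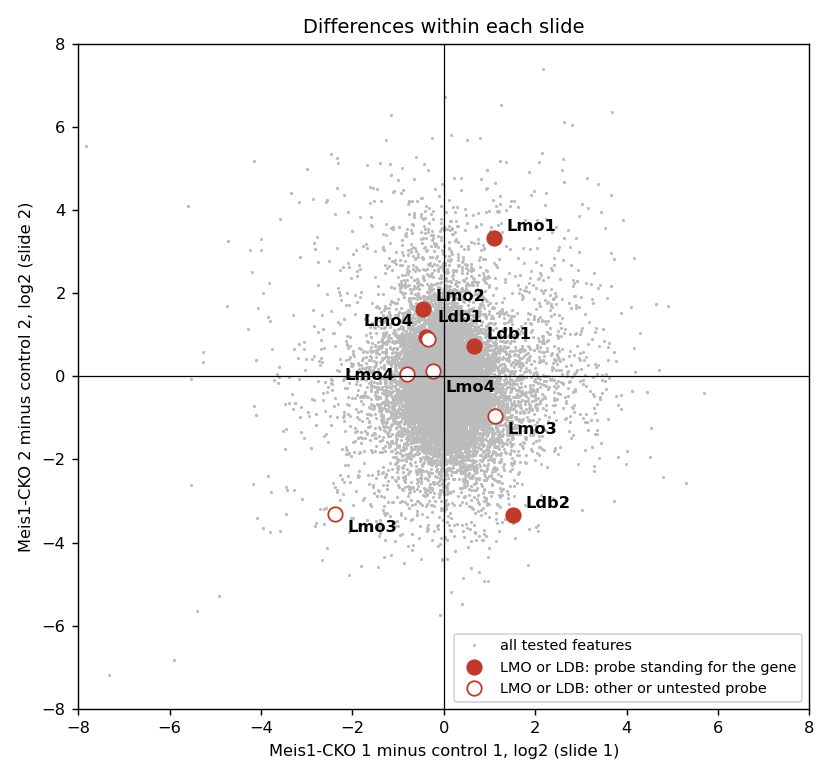
Log2 difference of Meis1-CKO 1 minus control 1 on slide 1 (horizontal axis) against that of Meis1-CKO 2 minus control 2 on slide 2 (vertical axis), for all tested features (grey) and the LMO and LDB probes (red; filled for the probe that stands for a tested gene). Lmo1 (1.09 and 3.32) and the main Ldb1 probe (0.65 and 0.74) lie in the upper right, Ldb2 (1.51 and -3.35) in the lower right, and the brighter Lmo3 probe, below background in both Meis1-CKO pools, in the lower left.

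Genes for proteins that work with LMO and LDB factors were then examined. Of 34 such genes in 4 lists, 33 were on the array and 22 passed the filter, and none was called in either direction. Of the bHLH, GATA and RUNX partners, 9 of 13 passed, with a median difference of 0.02. Lyl1, which encodes a bHLH partner of LMO2 and is itself a T cell leukaemia oncogene, read -2.10 and 0.40 in Meis1-CKO 1 and 2, against -5.63 and -3.18 in control 1 and 2. Both Meis1-CKO pools were above both control pools. Control 1 was not well above background, where the lowest level so called on that array was -3.45, so the size of the difference on slide 1 was not measured. The difference was 3.55 (SE 1.13, limma adjusted p = 1.00), and slide 2, with both arrays above background, gave 3.58. It was 1.03 with normexp background correction, 2.30 without Meis1-CKO 2 and 2.33 without control 1. Lyl1 was the 1 gene of its list at least 2-fold higher with separated arrays, as were 3.34% of all features. It passed the filter through its Meis1-CKO readings alone, so nothing is read from that count.

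The other genes of that list overlapped between the groups. Gata3, needed for T cell development and also expressed in epithelia, differed by -0.64, with -0.82 on slide 1 and -0.47 on slide 2. Cbfa2t3, which encodes a corepressor of the LDB1 complex in mouse red cells, differed by 0.54 (-0.47 and 1.56 on slides 1 and 2), and a second Cbfa2t3 probe by 0.66. Tal2 differed by -0.58, with 1.13 on slide 1 and -2.29 on slide 2. Cbfa2t3 turned to -0.10 and Tal2 to 0.63 without Meis1-CKO 2, and Gata3 was 0.032 without control 1 and -1.32 without control 2. The E protein genes Tcf3, Tcf4 and Tcf12, whose products pair with TAL1 and LYL1, differed by -0.04, 0.02 and 0.11. Tal1 was above background on 1 array of each group, and Gata1 and Nhlh1 on none, so these were not tested.

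LIM-homeodomain genes, whose products LMO proteins can displace from LDB, were mostly near background: 5 of 12 passed, with a median difference of -0.25, and 1 of them, Isl1, was above background on all 4 arrays. Lhx2 read -4.06 and -3.61 in Meis1-CKO 1 and 2, against -3.002 and -2.53 in control 1 and 2. Both control pools were well above background and both Meis1-CKO pools were not, which gives a drop of at least 1.90-fold (limma adjusted p = 1.00). Lhx9 read -3.12 and -5.85 in Meis1-CKO 1 and 2, against -2.19 and -2.06 in control 1 and 2. Meis1-CKO 2 was not well above background there, the difference was -2.35 (SE 0.92, limma adjusted p = 1.00), and a second probe, above background on 1 array, went the other way, at 1.16. Without Meis1-CKO 2 the Lhx9 difference was -0.99. Without Meis1-CKO 1 it was -3.72, with 1 array left in that group, the one that read Lhx9 below background. With normexp background correction the difference was -0.43 for Lhx9 and -0.28 for Lhx2. Isl1 read 1.19 and 0.67 in Meis1-CKO 1 and 2, against 1.08 and 1.28 in control 1 and 2, with overlapping groups. By the readings as deposited both Lhx2 and Lhx9 counted as at least 2-fold lower with separated arrays, as did 3.94% of all features. The bound for Lhx2 is 1.90-fold, however, and the Lhx9 value includes a reading below background. Both genes passed the filter through their control readings alone, so nothing is read from that count.

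Genes that set LDB protein stability were all measured on all 4 arrays, with a median difference of 0.07. SSBP proteins shield LDB1 from the ubiquitin ligase RLIM. Ssbp3 differed by -0.48 (SE 0.48, limma adjusted p = 1.00; -0.70 and -0.26 on slides 1 and 2), Ssbp2 by 0.43 and Ssbp4 by 0.21. Ssbp2 turned to -0.12 without control 2, and Ssbp4 to -0.38 without control 1. Rlim read 3.32 and 3.26 in Meis1-CKO 1 and 2, against 3.32 and 3.41 in control 1 and 2, a difference of -0.07. Of the LMO4 partners, 4 of 5 were on the array and all 4 passed, with a median of -0.02. Deaf1, whose product binds LMO4, read -2.65 and -2.49 in Meis1-CKO 1 and 2, against -1.51 and -1.82 in control 1 and 2 (difference -0.90, SE 0.43, limma adjusted p = 1.00). A second Deaf1 probe, above background on all 4 arrays, went the other way at 0.65, so the gene has no settled direction. The rest of that list, Rbbp8, Brca1 and the gp130 receptor gene Il6st, differed by 0.26, -0.07 and 0.02, and Rbbp8 turned to -0.30 without Meis1-CKO 2.

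**Figure D3:**
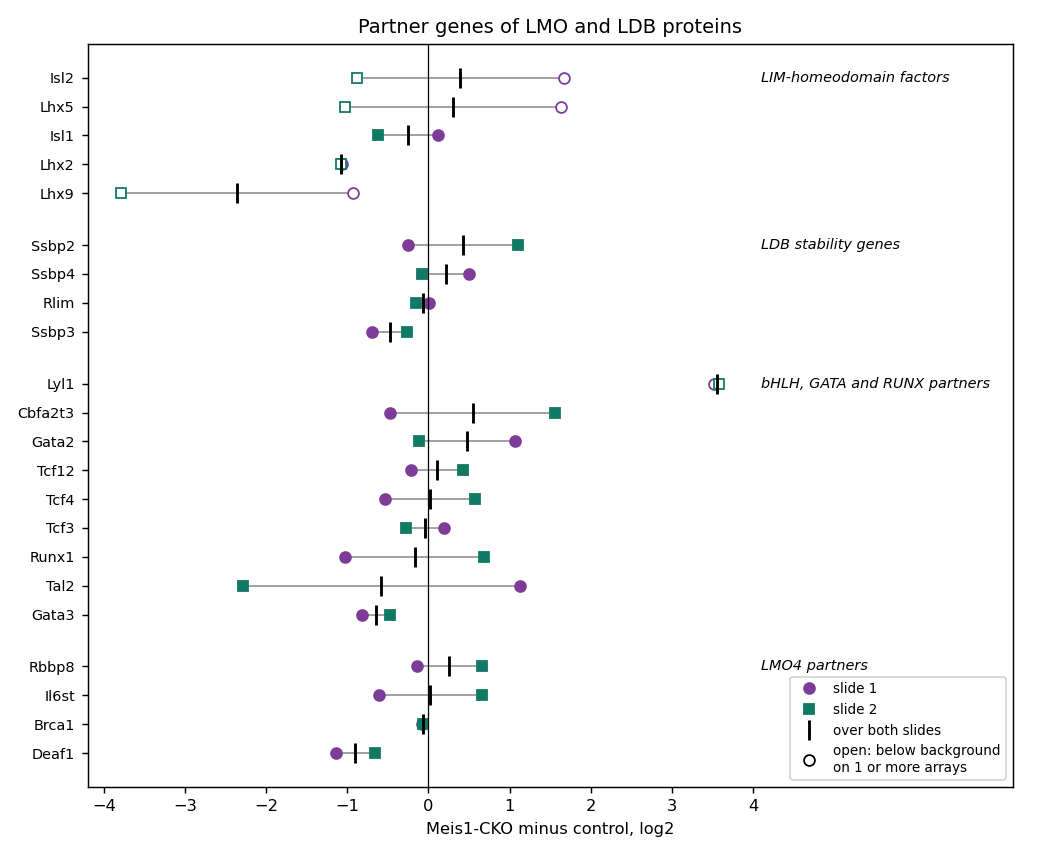
Log2 difference of Meis1-CKO minus control for the 22 tested partner genes, by list, on slide 1 (circles), on slide 2 (squares) and over both (bars), with open symbols where a gene was below background on at least 1 array. Lyl1 lies furthest to the right and Lhx9 furthest to the left; their open symbols, and those of Lhx2, Isl2 and Lhx5, rest on readings below background and do not measure a size.

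Markers of other cell types were read beside these genes, since blood cells and endothelium also express LMO and LDB genes. In bulk RNA, fewer cells of a type and less RNA per cell cannot be told apart. Myeloid and dendritic markers had a summed signal of 33.3 and 78.8 times the 75th percentile in Meis1-CKO 1 and 2, against 28.5 and 35.3 in control 1 and 2, with between 9 and 12 of the 12 above background. Thymocyte markers summed to 8.59 and 51.5 in Meis1-CKO 1 and 2, against 57.0 and 22.4 in control 1 and 2, with 11 to 13 of 14 above background and Rag2 on no array. Endothelial markers summed to 1.49 and 4.75 in Meis1-CKO 1 and 2, against 1.25 and 1.39 in control 1 and 2, with 4 to 6 of 10 above background. The endothelial genes Tie1, Emcn and Eng were above background on none of the 4 arrays, and Cdh5 on neither array of slide 2. Meis1-CKO 2, which had the highest Lmo1, Lmo2 and Lyl1 levels and the highest level of the main Lmo4 probe, also had the highest myeloid and dendritic and endothelial sums. Its median endothelial marker level was nevertheless the lowest, at -4.37, against -2.81 in Meis1-CKO 1 and -3.69 and -3.63 in control 1 and 2, and 4 endothelial markers were above background there, the fewest. The part of those cells in the LMO results was not tested.

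Erythroid markers summed to 9.80 and 3.80 in Meis1-CKO 1 and 2, against 11.2 and 7.78 in control 1 and 2, with 5 or 6 of 8 above background, and the red cell gene Klf1 was above background on no array. The sum was lowest in Meis1-CKO 2, the array with the highest Lmo2 level. TEC markers summed to 662 and 467 in Meis1-CKO 1 and 2, against 765 and 637 in control 1 and 2. Their median level was 4.84 and 4.05 in Meis1-CKO 1 and 2, against 4.76 and 4.90 in control 1 and 2. Of the 12 genes 11 were lower, with a median difference of -0.04 on slide 1 and -0.94 on slide 2. Over all features the slide 2 median was -0.12. The 1 higher gene, Cd74, read 7.71 and 8.08 in Meis1-CKO 1 and 2, against 7.75 and 7.71 in control 1 and 2. B cell markers summed to between 1.20 and 1.72 on all arrays, and fibroblast and mural markers to 94.6 and 91.8 in Meis1-CKO 1 and 2, against 109 and 77.1 in control 1 and 2. The smooth muscle gene Acta2 was 6.21 in Meis1-CKO 2, and the median level of that list was 1.03 and -0.76 in Meis1-CKO 1 and 2, against 0.81 and 0.36 in control 1 and 2, with 7 of its 8 tested genes lower.

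**Figure D4:**
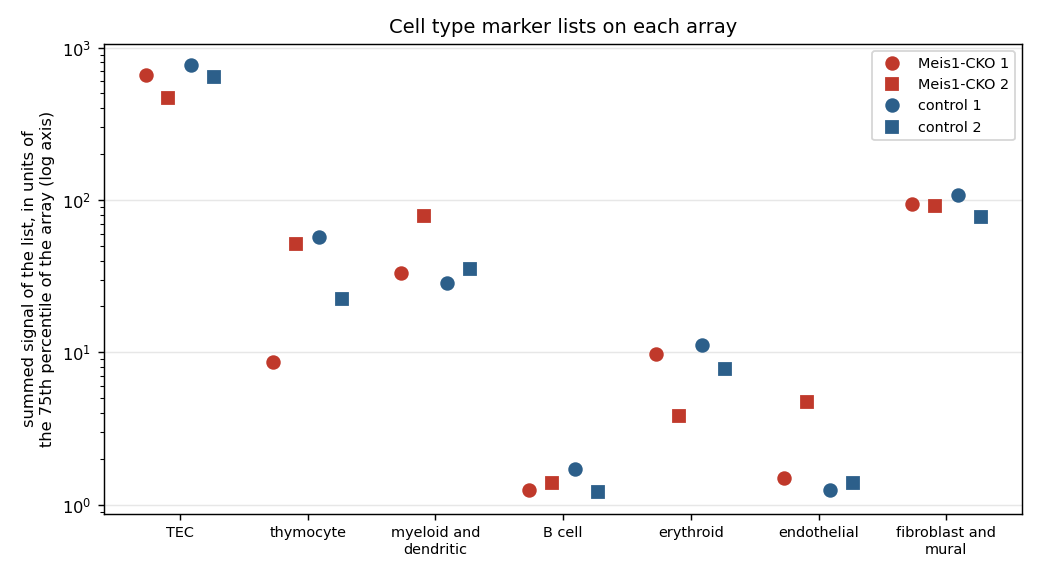
Summed signal of each cell type marker list (log axis, in units of the 75th percentile of the array) on Meis1-CKO 1 and 2 (red) and control 1 and 2 (blue). Myeloid and dendritic markers are highest in Meis1-CKO 2 at 78.8, thymocyte markers are lowest in Meis1-CKO 1 at 8.59; sums of different lists cannot be set against each other.

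Genes with the pattern most like a member over the 4 arrays were found by the root mean square distance between levels centred on their 4-array mean, among 12670 genes above background on all arrays. Closest to Lmo1 was the aminopeptidase gene Anpep (distance 0.13 log2 units), which read -1.36 and 0.70 in Meis1-CKO 1 and 2, against -2.22 and -2.46 in control 1 and 2. The nuclear receptor gene Nr4a2 (0.22), Dock5 (0.27) and Anxa3 (0.27), which encodes an annexin, followed, each highest in Meis1-CKO 2. Closest to the main Ldb1 probe were Srd5a3 (0.02), Patl1 (0.02), Dhrs1 (0.03) and the cohesin loader gene Nipbl (0.04), with differences between 0.66 and 0.74. Closest to the main Lmo4 probe were Marchf5 (0.03), the ribosomal protein gene Rps27 (0.04), the smooth muscle actin gene Acta2 (0.05) and Dgke (0.05). With 4 arrays and this many genes, near matches are found for many patterns, and the likeness is a description only.

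The promoters of the members were searched for TGACAG, the core of sites that MEIS proteins bind, on both strands in the 250 bases before to 50 after each start in RefSeq's table (GRCm38.p6). Of the 6 genes, 4 had an entry, with 9 starts in all; the table was not complete, and Lmo2 and Ldb2 were not searched. The letters were found at 1 start of Lmo4 out of 3 and at neither start of Lmo1, against 19.2% of all 32851 promoters. The Lmo4 stretch (GRCm38.p6, chr3:144202318-144202363, minus strand) is shown with the match in capitals because it is the 1 match in the family.
Lmo4 start: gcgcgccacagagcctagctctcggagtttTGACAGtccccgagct
The match lies across the start itself, and a match or its lack is a description of letters in this window.

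**Figure D5:**
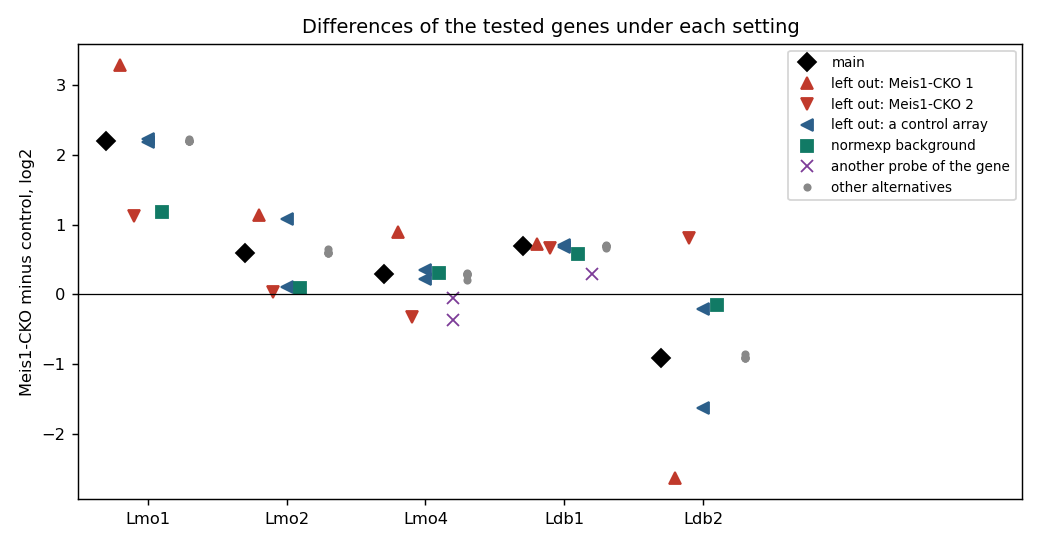
Log2 difference of Meis1-CKO minus control for the 5 tested LMO and LDB genes under the setting used here (black) and under each alternative. Lmo1 lies between 1.12 and 3.30 in those shown, and Ldb2 spans -2.64 to 0.80 with 1 array left out. Leaving out an array could not turn the sign of Lmo1, because both its Meis1-CKO readings lie above both control readings. Triangles mark arrays left out, green squares normexp background, crosses another probe of the gene and grey points the remaining settings.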

How the data were processed

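Per the file headers, the deposited intensity values are processed Cy3 signals that Agilent Feature Extraction 9.5.3.1 had background-subtracted and detrended within each array, with low values replaced by surrogates and no scaling between arrays. The deposited table of log2 values states no processing; over 20818 probes its differences between arrays matched the scaled scanner values with a slope of 1. Each of its rows was centred on its median, and its column medians were -0.058 and -0.12 for Meis1-CKO 1 and 2 and 0.038 and 0.092 for control 1 and 2. Scale and direction were thus settled from the scanner values.

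Here, log2 signals were scaled to the 75th percentile of each array, and 1639 control spots and outlier flags were left out. Testing was limited to probes that the scanner called well above background on every array of 1 or both groups, with the highest-mean probe standing for its gene, which left 16810 features. Groups were compared with limma 3.58.1 in R 4.3.3 on all 4 arrays, with Benjamini-Hochberg adjustment at 0.05 and 5.51 degrees of freedom. The number of arrays limits the precision. The p-values measure the spread between these pools of 2 independent experiments and do not reach beyond them. The main test did not pair arrays by number. A bound (at least N-fold) sets the brighter group against the dim signal or the lowest signal well above background on each array, whichever is higher. Symbols were updated by RefSeq accession for 26690 probes and by older symbol for 945, and 6840 had none. Probe coordinates come from the array files (mm9); printed promoter bases are RefSeq's on GRCm38.p6.

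Named are all members and all their probes, Meis1, partner genes at least 2-fold different with separated arrays, or else up to 3 of a list with the largest differences, and the 4 genes nearest in pattern to each member above background on all arrays; further list genes given for context were picked after their values were seen. Members, lists and rules were chosen with earlier results of these data known. The test was checked on simulated data. Arrays with the same number deviated together only weakly (correlation 0.13 across features), and no label says that a number marks a shared day or litter. The replicate block is therefore an alternative only.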

Additional observations from a re-analysis of the deposited data

How the results depend on the processing

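The count of features called stayed at 0 under every alternative but 1. These were quantile or median scaling, normexp background, the deposited value table, either filter on dim probes, every probe as a feature and the replicate block, under which 662 features had an unadjusted p under 0.05. Leaving out 1 array gave between 0 and 317 calls, with the 317 found without Meis1-CKO 1, where the lone array is assumed to vary like the others. Lmo1 ranged from 1.12 to 3.30 when 1 array was left out, with 3.30 without Meis1-CKO 1; no test is read from it, since Lmo1 chose the set. Of the partner genes, Lhx9 differed by -3.72 without Meis1-CKO 1. The 1 Meis1-CKO array left there read Lhx9 below background, so that value does not measure a size. The replicate block, with an array of each group under each number, and the filters on dim probes cannot move the Lmo1 difference from 2.21. The block gave it an SE of 0.69. The sign turned for Lmo4 at its other probes (-0.054 and -0.37). Leaving out 1 array moved Lmo4 between -0.32 and 0.90 and Ldb2 between -2.64 and 0.80, in both cases with the sign turned without Meis1-CKO 2. No other alternative tried turned the sign of a tested member, and the cause of these changes was not tested. For Lmo1 and the main Ldb1 probe, whose arrays were separated, leaving out an array could not turn the sign. Differences of Lmo2, Lmo3, Ldb2, Lyl1, Lhx2, Lhx9 and Fhl3 rest in part or, for a whole group, on signals not well above background.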

Other observations

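Genes of other proteins with LIM domains, which are not nuclear LMO cofactors, were read as well. Of 15 such genes 10 passed the filter and none was called. By the sign of the difference alone 2 were higher and 8 lower, but on slide 1 alone 5 were higher, and 2 were lower on both slides. The median log2 difference was -0.21, against -0.05 over all features. With every probe as a feature it was -0.07, against -0.03 over all. Nothing is read from these signs. Crip1, which encodes a small cysteine-rich LIM protein, read 2.73 and 5.005 in Meis1-CKO 1 and 2, against 2.98 and 3.05 in control 1 and 2, and a second Crip1 probe also differed mainly on slide 2 (-0.40 on slide 1 and 1.97 on slide 2). Crip3, a thymus-expressed relative, read 3.21 and 1.14 in Meis1-CKO 1 and 2, against 3.11 and 3.15 in control 1 and 2. Both therefore set Meis1-CKO 2 apart from the other 3 arrays, in opposite directions, and without it their differences turned sign, to -0.29 for Crip1 and 0.084 for Crip3. Fhl3, which encodes a protein of LIM domains alone, was above background in both Meis1-CKO pools and in neither control pool, at least 1.31-fold higher, but its difference was 0.10 with normexp background correction and its other probe overlapped between the groups. Crip2 was lower in both Meis1-CKO pools (2.42 and 1.72) than in both control pools (2.79 and 2.92), a difference of -0.79 (SE 0.47, limma adjusted p = 1.00). Lmo7, which shares a name but not the family of LMO cofactors, differed by -0.07, with 0.46 on slide 1 and -0.60 on slide 2, at the brightest of its 4 probes. Another Lmo7 probe was above background in both Meis1-CKO pools and in neither control pool, at least 2.40-fold higher, and a probe above background on 1 array, a control, differed by -1.98, so the gene has no settled direction.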
